A study of Mus musculus with 9 samples.

Results

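The genes described here encode the proteins of the mitochondrial ribosome. They were taken as every row of the deposited tables whose symbol begins with Mrpl (large subunit) or Mrps (small subunit) followed by a number, which gave 76 genes of 23279 gene rows. Of these, 47 are named for the large subunit and 29 for the small one. All 76 passed the filter of a mean of at least 1 FPKM (fragments counted per kilobase of transcript length and adjusted for library size) and were among the 10878 genes tested. No measured value was used to choose them.

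Mitochondria keep a small genome that encodes core subunits of the respiratory chain, and they translate it on ribosomes of their own. The RNAs of those ribosomes are made inside the organelle, while their proteins are encoded in the nucleus, translated in the cytosol and imported. Some of these proteins are counterparts of bacterial ribosomal proteins and others are found only in mitochondria. Cells that divide quickly, as early B cells do in interleukin-7, have to make new mitochondria and with them new mitochondrial ribosomes.

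The 9 RNA libraries came from primary mouse pro-B cell cultures in 3 groups of 3 biological replicates. Marrow cells from mice aged 6 to 8 weeks grew for 7 days in methylcellulose medium with interleukin-7, the colonies of each culture were pooled, and ERCC spike-in RNA was added to the RNA of a fixed number of cells. The groups were wild-type littermates, whose strain the labels do not give, Hmgn1-overexpressing mice on C57BL/6, and Ts1Rhr mice on an FVB x C57BL/6 F1 background. Ts1Rhr mice carry an extra copy of a segment of chromosome 16 that contains Hmgn1, the gene of a nucleosome-binding protein. The cell type label names Ts1Rhr in all 9 libraries, so groups were taken from the genotype label. Strain and genotype cannot be told apart between the mutant groups. The mutant groups differ in strain and that of the wild type is not given, so comparisons with wild type may mix strain and genotype too. The labels do not say which promoter drives Hmgn1 or which animals gave the replicates. Each p-value sets a difference of group means against the spread among these libraries only. The series title ties the extra segment to a general rise in transcription through HMGN1, so the levels of a widely expressed gene family bear on the question it addresses.

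Hmgn1 itself lay between 125 and 127 raw FPKM in the Ts1Rhr libraries, 71.9 and 77.2 in the Hmgn1-overexpressing ones and 58.5 and 67.3 in wild type. The difference between Ts1Rhr and wild type passed the test on raw FPKM (limma, adjusted p = 0.00923) and not on normalised FPKM, the table the authors scaled further (limma, adjusted p = 0.0909). That of the Hmgn1-overexpressing group passed on neither (limma, adjusted p = 0.345 and 0.54). All 14 pro-B markers were tested, and their summed raw FPKM spanned 1761 to 2209 in wild type, 2317 to 3186 with Hmgn1 overexpression and 1964 to 2682 in Ts1Rhr. Myeloid transcripts were more abundant, with sums over 17 markers of 24743 to 37168, 14338 to 29967 and 15656 to 18127 in the same order. The Ts1Rhr sums thus lay below all wild-type ones. Most of each sum was Lyz2, at 20218.5 to 30708 raw FPKM in wild type and 13244 to 15337 in Ts1Rhr. S100a8, S100a9 and Mpo overlapped between these groups. Stromal markers (7 in the table) summed to 67.3 to 102 raw FPKM in wild type and at most 15.7 in the mutant libraries. The erythroid genes Klf1, Hbb-b1, Hba-a1 and Epor, the T cell genes Cd3e, Cd4 and Cd8a, and the mast cell genes Fcer1a and Gata2 stayed under 1 FPKM in every library. Other genes of these lists did not: Car2 of the erythroid list spanned 35.9 to 55.3 raw FPKM in wild type, 55.4 to 91.8 with Hmgn1 overexpression and 90.7 to 118 in Ts1Rhr, and Nkg7, Cd3g, Klrb1c, Cpa3 and Mcpt8 passed 1 FPKM in at least 1 library, with 2.15 (Nkg7) as the highest value. A pair of libraries stood apart: wild-type replicate 1, where the 10 highest genes held 23.1% of summed FPKM, and Ts1Rhr replicate 3, the only one above 1 FPKM for the Y-linked gene Ddx3y (41.8 raw FPKM). In bulk libraries, fewer cells of a type and less RNA per cell cannot be told apart, and the part of these differences in the results was not tested except where a value is given.

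Promoter sequences were available from RefSeq (GRCm38.p6) for 67 of the 76 genes, as windows from 250 bases before to 50 bases after the annotated start. The 4 shown here include those of Mrps9 and Mrpl41. These members differed between Ts1Rhr and wild type in opposite directions on raw FPKM, and neither passed the test on normalised FPKM. The others are those of Mrps24, the member with the largest difference upward in that comparison, and of Mrps11, one of the steadiest members on raw FPKM. Capitals mark matches to the NRF1 motif, the ETS motif (CCGGAAG) or the YY1 motif (AAGATGGC) on either strand, and lower case marks all other bases.
Mrps9: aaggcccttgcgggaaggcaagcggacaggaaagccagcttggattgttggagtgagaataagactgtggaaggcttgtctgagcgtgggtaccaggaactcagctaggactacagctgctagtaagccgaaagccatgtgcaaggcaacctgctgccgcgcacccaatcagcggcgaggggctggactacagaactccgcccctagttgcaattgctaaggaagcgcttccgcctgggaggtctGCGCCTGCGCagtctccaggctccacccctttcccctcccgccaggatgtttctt
Mrps24: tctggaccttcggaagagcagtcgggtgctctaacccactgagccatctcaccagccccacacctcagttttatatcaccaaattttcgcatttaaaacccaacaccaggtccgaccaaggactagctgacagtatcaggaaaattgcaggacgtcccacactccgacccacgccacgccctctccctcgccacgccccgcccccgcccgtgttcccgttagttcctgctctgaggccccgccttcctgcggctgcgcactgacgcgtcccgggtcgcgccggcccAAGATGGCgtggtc
Mrps11: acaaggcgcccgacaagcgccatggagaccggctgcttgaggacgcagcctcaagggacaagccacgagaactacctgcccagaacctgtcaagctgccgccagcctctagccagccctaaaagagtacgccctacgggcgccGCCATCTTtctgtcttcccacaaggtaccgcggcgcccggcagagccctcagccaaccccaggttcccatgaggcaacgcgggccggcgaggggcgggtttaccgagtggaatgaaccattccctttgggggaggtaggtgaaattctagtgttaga
Mrpl41: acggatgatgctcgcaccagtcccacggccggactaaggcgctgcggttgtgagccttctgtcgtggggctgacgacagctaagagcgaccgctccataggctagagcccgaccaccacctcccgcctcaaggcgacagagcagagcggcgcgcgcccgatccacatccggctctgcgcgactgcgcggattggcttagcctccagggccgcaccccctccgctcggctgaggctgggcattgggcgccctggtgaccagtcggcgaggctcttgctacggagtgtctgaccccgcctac
The Mrps9 window is chr1:42850983-42851282 on the plus strand, and its NRF1 match begins at position -5 relative to the start. The Mrps24 window is chr11:5707652-5707951 on the minus strand, with a YY1 match that begins at position 36. The Mrps11 window is chr7:78782881-78783180 on the plus strand, and its YY1 match lies on the opposite strand, beginning at position -107. The Mrpl41 window, chr2:24975049-24975348 on the minus strand, held no match to any of these motifs. A match describes the letters in the window and is not evidence of binding.

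NRF1 (nuclear respiratory factor 1), the ETS factor GABP and YY1 are textbook activators of nuclear genes for mitochondria, which is why these motifs were searched. At least 1 of the 3 motifs was present in the promoters of 41 of the 67 genes (61.2%), against 35.2% of the 8166 tested genes with a promoter and 16.4% of all 27025 genes in the table. The ETS motif was in 35.8% of member genes against 21.9% of tested genes, the YY1 motif in 17.9% against 5.85%, and the NRF1 motif in 17.9% against 12.4%. The SP1 box (GGGCGG) was in fewer member genes than tested genes, 49.3% against 69.8%, and the E-box (CACGTG) in 7.46% against 12.3%. Both strands were searched, no motif contains another, and a gene with several promoters counted once. NRF1 matches were in 9 of 41 large-subunit and 3 of 26 small-subunit genes, and ETS matches in 13 of 41 and 11 of 26.

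Many of these genes also share a promoter region with a neighbour that is read in the other direction. By GENCODE vM21, a protein-coding neighbour started within 1000 bases upstream on the opposite strand for 24 of 76 members (31.6%), against 1483 of 9908 tested protein-coding genes (15%). The pair Mrps11 and Mrpl46 joins a small- and a large-subunit gene with starts 30 bases apart. Other partners belong to mitochondria too: Sars2, the mitochondrial seryl-tRNA synthetase, lies head to head with Mrps12, Twnk, the mitochondrial DNA helicase, with Mrpl43, and Ndufs6, a subunit of respiratory complex I, with Mrpl36. The other partners include Psma2 of the proteasome beside Mrpl32 and the chaperonin gene Tcp1 beside Mrpl18. Exons of 22 members overlap those of another gene by at least 50 bases, among them Mrpl21 (Ighmbp2), Mrpl24 (Rrnad1), Mrpl47 (Actl6a and Ndufb5), Mrps25 (Nr2c2) and Mrps6 (Slc5a3). The labels do not say whether counting used strand, and some overlaps, such as that of Mrps6 with Slc5a3, are on the same strand. Values of these members may therefore hold reads of the neighbour. Pseudogenes are named for Mrpl23, Mrpl27, Mrpl48 and Mrps36, whose values are uncertain for that reason.

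**Figure D1:**
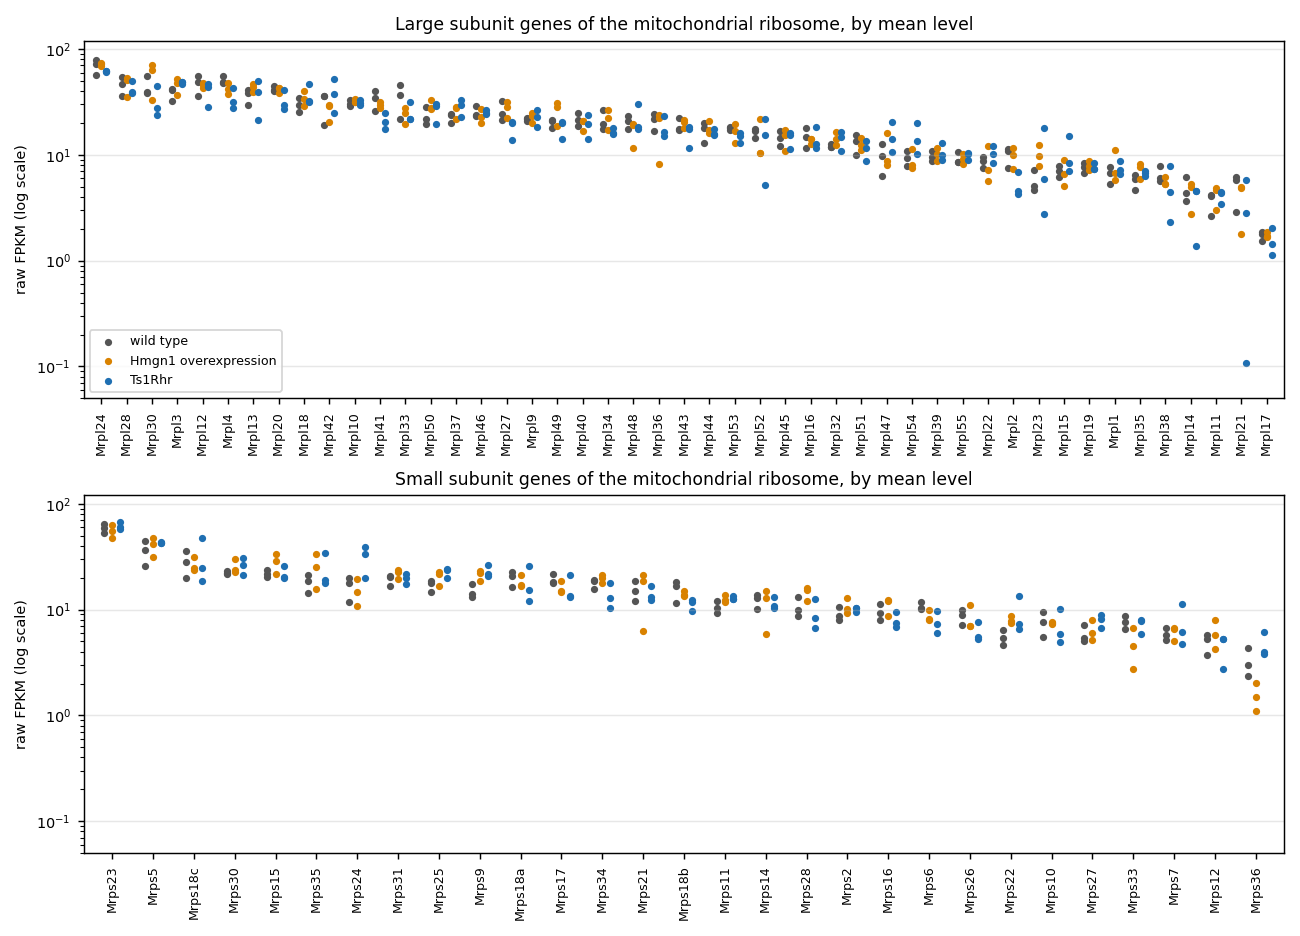
Raw FPKM of the 47 large-subunit genes (top) and 29 small-subunit genes (bottom) on a log scale, with genes ordered by mean level and 1 point per library, coloured by group. Means run from 67.8 (Mrpl24) down to 1.67 (Mrpl17), and the isolated low point is Mrpl21 in Ts1Rhr replicate 3, at 0.109.

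Mitochondrial ribosomal protein genes were expressed at moderate, uneven levels. Their mean raw FPKM had a median of 16.7, against 13.0 for all tested genes, and 45 of 76 (59.2%) lay above the median tested gene. Large-subunit genes had a median of 18.2 and a middle range of 9.27 to 28.1, and small-subunit genes had a median of 13.6 and a middle range of 7.70 to 20.3. Most of these proteins occur as a single copy per ribosome, and the mean of the highest gene was 40.5 times that of the lowest. Their joint share of summed raw FPKM lay between 0.255% and 0.351% in the 9 libraries. All 76 reached 1 FPKM in 8 libraries, and 75 did in Ts1Rhr replicate 3.

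At the top of the large subunit, Mrpl24, which lies at the exit of the peptide tunnel, had 79.2, 71.7 and 57.4 raw FPKM in wild type, 72.5, 73.9 and 69.5 with Hmgn1 overexpression and 62.8, 60.1 and 62.7 in Ts1Rhr. Mrpl28 (35.1 to 54.8 raw FPKM over the 9 libraries) and Mrpl30 (23.6 to 71.4) followed. At the top of the small subunit, the mitochondria-specific Mrps23 spanned 47.5 to 67.4 raw FPKM, with Mrps5 at 25.9 to 47.9 and Mrps18c at 18.7 to 47.7. Mrpl17 had the lowest level, 1.13 to 2.04 raw FPKM, below Mrpl21 and Mrpl11 (2.67 to 4.86). In the small subunit the lowest were Mrps36 (1.10 to 6.08), Mrps12 (2.73 to 8.03), which forms part of the decoding centre, and Mrps7 (4.75 to 11.3). The ranges of Mrpl24 and Mrpl17 did not meet, and those of neighbours such as Mrpl28 and Mrpl30 overlapped.

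Several members have roles beyond a structural one. Mrpl12, whose protein forms the flexible stalk of the large subunit and also binds the mitochondrial RNA polymerase, lay between 28.3 and 55.1 raw FPKM. Mrpl10, which anchors that stalk, was the steadiest on raw FPKM, between 28.7 and 33.5, while on normalised FPKM Mrps25 and Mrps9 had smaller SDs. Mrpl44, which carries a domain related to ribonuclease III, lay between 12.9 and 20.7. The 3 relatives of bacterial S18 differed in mean level, with Mrps18c the highest. Mrps18a spanned 12 to 25.8 and Mrps18b 9.77 to 18.1, and these overlapped.

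Members varied between replicates slightly more than the typical gene. The median SD within groups of raw log2 FPKM was 0.282 for the 76 genes and 0.25 for all tested genes. On normalised FPKM, the authors' second table, which was scaled further, these SDs were 0.415 and 0.351. Mrpl10 (0.081), Mrps11 (0.129) and Mrpl19 (0.139) had the smallest raw SDs. The largest belonged to Mrpl21 (1.58), Mrpl23 (0.816), Mrpl52 (0.717) and Mrpl14 (0.657). The median SD was thus larger on normalised FPKM for the members and for all genes. Some members went the other way, such as Mrps25 (0.088 normalised and 0.191 raw).

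The large-subunit median lay above the small-subunit median in 9 of 9 libraries. On normalised FPKM the gap, in log2 units, was 0.448, 0.480 and 0.602 in wild type, 0.277, 0.282 and 0.403 with Hmgn1 overexpression and 0.474, 0.337 and 0.379 in Ts1Rhr. The gap was smaller in each Hmgn1-overexpressing library than in any wild-type one, and the Ts1Rhr libraries overlapped both groups. Raw FPKM gave gaps of 0.438, 0.451 and 0.607, of 0.252, 0.276 and 0.410, and of 0.566, 0.343 and 0.375 in the same order, with the same separation. Symbols do not follow structure for every member: the proteins of Mrps18a and Mrps30 sit in the large subunit, and that of Mrps36 is known as a part of the 2-oxoglutarate dehydrogenase complex. With these moved or left out, the normalised gap was 0.486 to 0.695 in wild type and 0.355 to 0.533 with Hmgn1 overexpression, and these groups overlapped.

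**Figure D2:**
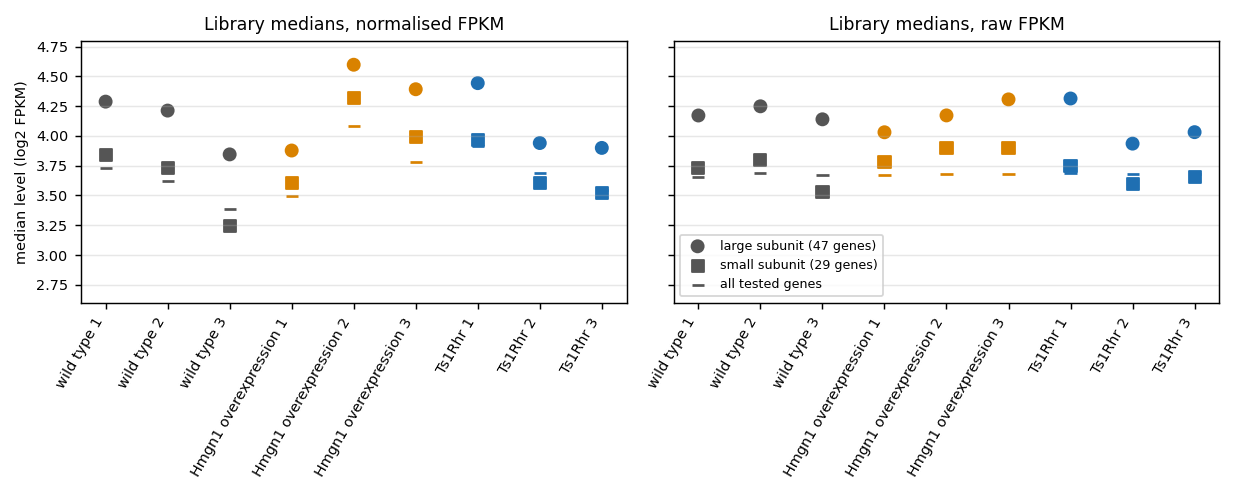
Median log2 FPKM of large-subunit genes (circles), small-subunit genes (squares) and all tested genes (dashes) in each library, on normalised FPKM (left) and raw FPKM (right), coloured by group. Circles lie above squares in 9 of 9 libraries, and the medians vary more between libraries on the normalised scale than on the raw one.

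Normalised medians of the subunits were lowest and highest in the libraries where the median over all genes was, and the order in between was not the same. The lowest large-subunit median, 3.85 on the log2 scale, was in wild-type replicate 3, which also had the lowest median over all tested genes, 3.39. The highest, 4.60, was in Hmgn1-overexpressing replicate 2, with 4.09 for all genes. Ts1Rhr replicate 2 had a higher median over all genes than wild-type replicate 2, 3.69 against 3.62, and a lower large-subunit median, 3.94 against 4.21. Raw FPKM held the median of all genes between 3.66 and 3.69, and the large-subunit median then ran from 3.94 to 4.31. Group means of the normalised large-subunit median were 4.12 ± 0.24 in wild type and 4.29 ± 0.37 with Hmgn1 overexpression (SD, n = 3), so their difference was smaller than the spread within either group.

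No mitochondrial ribosomal protein gene passed the test between Ts1Rhr and wild type on normalised FPKM, and 3 did on raw FPKM. The test was limma, with Benjamini-Hochberg adjustment over all 10878 genes and a threshold of 0.05. On normalised FPKM it called 0 of 76 members against 0.57% of all tested genes, and the smallest adjusted p of a member was 0.122 (Mrps9). At an unadjusted p under 0.05, 8 members were higher and 3 lower, against 13.2% and 6.3% of all genes (14.5% of the members and 19.5% of all genes in either direction). On raw FPKM limma called 1 member higher and 2 lower, against 4.29% and 4.56% of all genes (3.95% and 8.85% in either direction). At an unadjusted p, 14 members passed on raw FPKM (18.4%, against 30.9% of all genes). The share of members called was thus no larger than the background on either scale.

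The median difference of the members was close to 0. On normalised FPKM it was 0.04 for the large subunit and 0.08 for the small one on the log2 scale, against 0.12 for all tested genes, and 46 of 76 members (60.5%) lay above 0, as did 59.9% of all genes. On raw FPKM the medians were -0.06 and 0.03 against 0.01, and 36 members lay above 0 (47.4%, against 51% of all genes). The sign for the large subunit thus turned with the scaling: with every library set to the same median it was -0.09, and with 1 spike-in factor per library -0.08. With 1 library left out it ranged from -0.23 (without wild-type replicate 3) to 0.14 (without wild-type replicate 1). The small-subunit median turned as well, to -0.05 with every library at the same median and -0.08 without wild-type replicate 3.

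Mrps9, the counterpart of bacterial S9 in the head of the small subunit, was the member that rose on raw FPKM. Its raw FPKM was 13.2, 14.2 and 17.6 in wild type, 22.0, 18.8 and 23.1 with Hmgn1 overexpression and 20.7, 21.5 and 26.2 in Ts1Rhr. All 6 mutant libraries exceeded all 3 wild-type ones. Of all tested genes, 19.1% were higher without overlap in Ts1Rhr and 9.81% with Hmgn1 overexpression, against the same wild-type libraries. Mrps9 was picked by its call on these raw values, so the separation adds no support. The difference between Ts1Rhr and wild type was 0.61 ± 0.16 (SE) on the log2 scale, a fold of 1.52 (limma, adjusted p = 0.0448). On normalised FPKM the values were 14.3, 13.9 and 14.5 in wild type and 23.1, 21.7 and 24.2 in Ts1Rhr, again without overlap, and the fold of 1.62 did not pass the test (limma, adjusted p = 0.122). The promoter of Mrps9 is the one shown above with an NRF1 match at its start. Mrps26 has NRF1 matches at positions -2 and 4, and its normalised log2 difference was -0.32. A link between motifs and levels was not tested.

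Mrpl2, the counterpart of bacterial L2 beside the peptidyl transferase centre, fell on raw FPKM. It had 10.9, 7.48 and 11.3 raw FPKM in wild type, 7.38, 11.6 and 10.1 with Hmgn1 overexpression and 6.88, 4.29 and 4.51 in Ts1Rhr. The Ts1Rhr libraries lay below all others. The difference from wild type was -0.92 ± 0.24 (SE) on the log2 scale, a fold of 0.53 (limma, adjusted p = 0.0458). Mrpl41, a mitochondria-specific protein that has also been tied to apoptosis, fell likewise. Its raw FPKM was 39.9, 34.7 and 26.1 in wild type, 27.9, 29.4 and 31.6 with Hmgn1 overexpression and 24.9, 17.8 and 20.5 in Ts1Rhr. Every Ts1Rhr library was again below every other library, with a difference from wild type of -0.66 ± 0.18 (SE), a fold of 0.632 (limma, adjusted p = 0.0472). Both genes were picked by their calls on these raw values, so the separation there adds no support. On raw FPKM 18.5% of all tested genes were lower without overlap in Ts1Rhr than in wild type. On normalised FPKM the Ts1Rhr and wild-type values of both genes overlapped. Neither passed there (limma, adjusted p = 0.246 for Mrpl2 and 0.242 for Mrpl41).

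These 3 calls lay close to the threshold. When each of the 9 libraries was left out in turn, limma on raw FPKM called Mrpl2 in 5 of 9 fits, Mrps9 in 2 and Mrpl41 in 1, and the number of members called ranged from 0 to 3. It was 0 without Ts1Rhr replicate 2, Ts1Rhr replicate 3, wild-type replicate 1 or wild-type replicate 3, and 1 without wild-type replicate 2 or Hmgn1-overexpressing replicate 1. Calls over all tested genes moved too, from 963 with all libraries to between 1 (without Ts1Rhr replicate 3 or wild-type replicate 1) and 1276 (without Hmgn1-overexpressing replicate 3). In the 4 fits with no member called, at most 3 genes of the whole table were called. A further fit used the median normalised level of the myeloid markers of each library as a covariate. The same covariate served the raw fits, so it also carries the scaling between libraries. With it, the raw differences were 0.43 for Mrps9, -0.78 for Mrpl2 and -0.59 for Mrpl41. None of these passed (limma, adjusted p = 0.191, 0.203 and 0.202), while 11 of all tested genes did. With a replicate block the calls were also lost (limma, adjusted p = 0.0547, 0.0691 and 0.0661), with 314 genes called in the whole table.

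**Figure D3:**
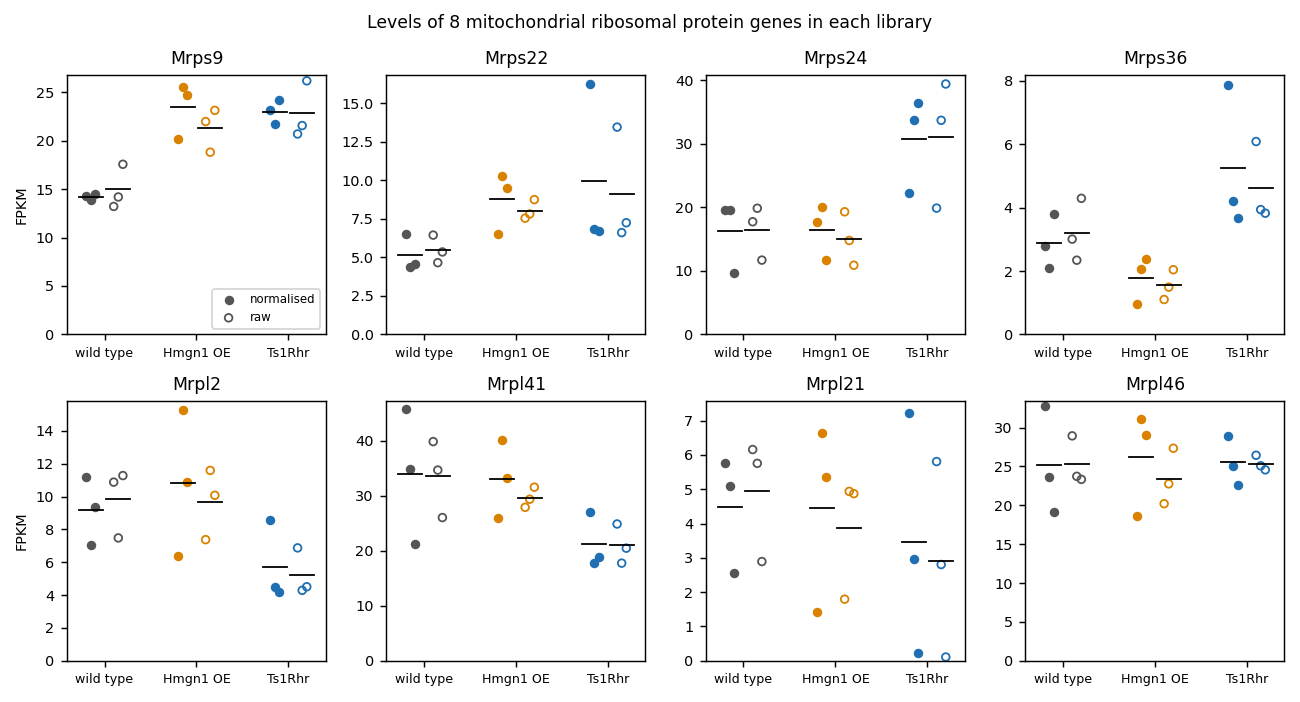
Normalised (filled) and raw (open) FPKM of 8 members in each library, with black lines at the mean of 3 libraries and axes that start at 0. Mrps9 lies higher in both mutant groups than in wild type, Mrps24 lies highest in Ts1Rhr, Mrpl2 and Mrpl41 lie lowest there on raw FPKM, and Mrpl21 depends on single libraries.

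On normalised FPKM, 8 members were higher in all Ts1Rhr libraries than in all wild-type ones and 0 were lower, against 21.7% and 8.43% of all tested genes (30.2% in either direction). They were Mrps9, Mrps22, Mrps24, Mrps25, Mrps27, Mrpl15, Mrpl47 and Mrpl54, so 5 of 29 small-subunit and 3 of 47 large-subunit genes. On raw FPKM 6 were higher and 6 lower, against 19.1% and 18.5% of all genes (37.6% in either direction). The Ts1Rhr and wild-type libraries thus separated for a smaller share of the members than of all genes, on both scales.

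Mrps24, the counterpart of bacterial S3 at the entry of the mRNA channel, had the largest upward difference of a member. Its normalised FPKM was 19.6, 19.7 and 9.70 in wild type, 17.7, 20.1 and 11.8 with Hmgn1 overexpression and 22.2, 33.7 and 36.5 in Ts1Rhr. The 3 Ts1Rhr libraries were above the other 6, by little in replicate 1. The fold over wild type was 1.94 (limma, adjusted p = 0.13) and that over Hmgn1 overexpression 1.87 (limma, adjusted p = 0.988), so neither passed. Raw FPKM gave a fold of 1.85 over wild type (limma, adjusted p = 0.0722). The normalised log2 difference of 0.96 became 0.62 without wild-type replicate 3.

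Mrps22, a mitochondria-specific protein whose human gene is mutated in a mitochondrial disease, had 6.52, 4.35 and 4.55 normalised FPKM in wild type and 16.3, 6.86 and 6.68 in Ts1Rhr. The groups did not overlap, but the mean of Ts1Rhr was carried by replicate 1, and the log2 difference of 0.84 dropped to 0.42 without it. Mrpl47, Mrpl54 and Mrpl15 had the largest upward differences in the large subunit, 0.79, 0.73 and 0.65 on the log2 scale (limma, adjusted p between 0.205 and 0.214). Single libraries carried much of these: Mrpl47 dropped to 0.46 and Mrpl54 to 0.39 without Ts1Rhr replicate 1, and Mrpl15 to 0.36 without Ts1Rhr replicate 2. For Mrpl15 the Ts1Rhr values were 8.84, 15.2 and 7.78 against 7.17, 5.74 and 6.54 in wild type, so replicate 2 stood out. None of these genes passed on raw FPKM either.

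The lowest member difference was that of Mrpl21, -1.30 on the log2 scale (limma, adjusted p = 0.413). Its normalised FPKM was 5.76, 5.09 and 2.56 in wild type, 1.41, 6.63 and 5.37 with Hmgn1 overexpression and 7.22, 2.96 and 0.236 in Ts1Rhr. The highest and the lowest of the 9 values were thus both in Ts1Rhr. Without Ts1Rhr replicate 3, the library with Y-linked RNA, the difference became 0.13. Among small-subunit genes the lowest were Mrps6, Mrps34 and Mrps26, at -0.35, -0.32 and -0.32, and their values overlapped with wild type on normalised FPKM.

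The members on chromosome 16 lie outside the extra segment. Mrpl40, Mrpl39 and Mrps6 are the 3 members on that chromosome, and all lie before Cbr1, the first gene of the triplicated stretch. Their normalised differences between Ts1Rhr and wild type were -0.14, 0.27 and -0.35 on the log2 scale, and none passed (limma, adjusted p = 0.821, 0.622 and 0.522). No member is therefore present in an extra copy by position.

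**Figure D4:**
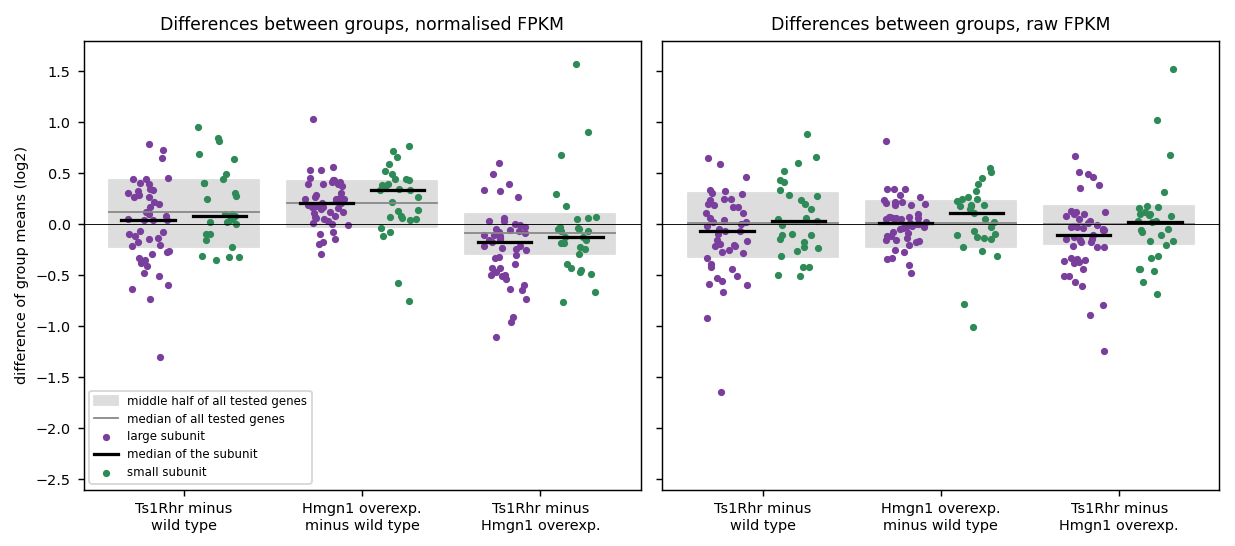
Log2 differences of group means for each large-subunit (purple) and small-subunit (green) gene in the 3 comparisons, on normalised FPKM (left) and raw FPKM (right). Black bars are subunit medians, grey bands hold the middle 50% of all tested genes and grey lines their median; subunit medians lie inside the grey band in each comparison.

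Between Hmgn1 overexpression and wild type, limma called 0 of 76 members on either scale, against 0.0919% of all tested genes on normalised FPKM (0.00919% higher and 0.0827% lower) and 0.0368% on raw FPKM, all lower. At an unadjusted p under 0.05, 4 members were higher and 0 lower on normalised FPKM, against 10.9% and 0.837% of all genes (11.7% in either direction). On raw FPKM 2 were higher and 2 lower, against 7.18% and 7.39% (14.6% in either direction). The smallest adjusted p was 0.278, for Mrps9 (limma, a fold of 1.64 on normalised FPKM). The comparison uses the same wild-type libraries as the one above, so its values are not independent of it.

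On normalised FPKM 64 of 76 members (84.2%) lay above 0, as did 72.7% of all tested genes. Medians were 0.21 for the large subunit and 0.34 for the small one, against 0.21 for all genes. On raw FPKM they were 0.01 and 0.11 against 0.01, with 43 members above 0 (56.6%, against 51.6% of all genes). The upward shift of the large subunit on the normalised scale thus matched that of all genes, and the small-subunit median lay above that of all genes on both scales. Raw FPKM held the log2 median of all tested genes between 3.66 and 3.69 in every library. It therefore cannot show a shift that all genes share.

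Libraries of the Hmgn1-overexpressing group lay above all wild-type ones for 7 members and below for 0, against 16.6% and 0.8% of all tested genes (17.4% in either direction). The 7 were Mrpl1, Mrpl18, Mrpl49, Mrps9, Mrps25, Mrps28 and Mrps35, of which Mrps9 and Mrps25 were also among the 8 in Ts1Rhr. Raw FPKM gave 3 higher and 2 lower, against 9.81% and 8.25% (18.1% in either direction). Mrps28, a small-subunit protein, had 9.01, 12.7 and 8.16 normalised FPKM in wild type, 14.1, 16.1 and 16.5 with Hmgn1 overexpression and 15, 8.48 and 6.10 in Ts1Rhr. Its fold of 1.59 over wild type did not pass (limma, adjusted p = 0.4), and only 1 of the Ts1Rhr libraries reached the Hmgn1-overexpressing range.

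Mrpl23, at the exit of the peptide tunnel, had the largest difference in this comparison, 1.04 on the log2 scale (limma, adjusted p = 0.453). Its normalised FPKM was 7.22, 4.63 and 3.99 in wild type, 6.76, 12.8 and 13.3 with Hmgn1 overexpression and 21.3, 6.08 and 2.6 in Ts1Rhr, so replicates of 1 group differed more than the groups did. Mrpl35 and Mrpl49 followed in the large subunit, at 0.56 and 0.54, and Mrps22 and Mrps9 led the small subunit, at 0.77 and 0.71. The lowest members were Mrps36 and Mrps33, at -0.75 and -0.58 (-0.34 without Hmgn1-overexpressing replicate 1 and -0.28 without replicate 3), and in the large subunit Mrpl33, Mrpl21 and Mrpl36, at -0.29, -0.19 and -0.17. None of them passed the test.

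Between Ts1Rhr and Hmgn1 overexpression limma called 0 of 76 members on either scale, against 0% of all tested genes on both. At an unadjusted p under 0.05, 2 members were higher and 7 lower on normalised FPKM, against 0.864% and 3.5% of all genes (11.8% of the members and 4.37% of all genes in either direction). On raw FPKM 4 were higher and 9 lower, against 3.9% and 4.95% (17.1% and 8.85% in either direction). These are counts before adjustment, and they carry no call. Medians were -0.17 for the large and -0.12 for the small subunit on normalised FPKM, against -0.09 for all genes, and -0.10 and 0.02 against 0.00 on raw FPKM. Above 0 lay 18 members on normalised FPKM, against 37.5% of all genes, and 30 on raw FPKM, against 50.3%. Strain differs between these groups by the labels, and the design does not separate it from genotype.

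In this comparison 2 members did not overlap upward, Mrps24 and Mrps36, against 1.79% of all genes, and 5 did downward, Mrpl24, Mrpl27, Mrpl49, Mrps16 and Mrps34, against 6.6% (8.39% in either direction). On raw FPKM 2 did upward and 6 downward, against 6.89% and 5.99% (12.9% in either direction). Mrps36 had the largest difference of any member over the 3 comparisons on normalised FPKM. Its normalised FPKM was 2.79, 2.10 and 3.8 in wild type, 0.950, 2.07 and 2.37 with Hmgn1 overexpression and 7.85, 4.2 and 3.68 in Ts1Rhr. Ts1Rhr thus lay above Hmgn1 overexpression in every library, with wild type between them and overlapping both. The fold was 2.97 (limma, adjusted p = 0.988) and 2.88 on raw FPKM (limma, adjusted p = 0.412). The level was low, and 3 pseudogenes are named for Mrps36.

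Mrpl27, a protein beside the peptidyl transferase centre, had a fold of 0.602 on normalised FPKM in the same comparison, and Mrps34, which is needed for a stable small subunit, had 0.631. For Mrps34 the Hmgn1-overexpressing libraries held 17.9, 28.8 and 19.2 normalised FPKM and the Ts1Rhr ones 14.7, 10.4 and 16.2. These groups did not overlap, and the gap between the nearest libraries was small. Neither gene passed (limma, adjusted p = 0.988 for both). In the large subunit Mrpl21, Mrpl30 and Mrpl2 were lowest, at -1.10, -0.96 and -0.91 on the log2 scale.

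Other genes of mitochondrial translation were read from the same fits. The lists held 7 mitoribosome proteins under other symbols, 17 translation factors, 17 mitochondrial aminoacyl-tRNA synthetases, 21 assembly factors, 12 genes of mitochondrial RNA synthesis and processing and 9 factors linked to the transcription of nuclear genes for mitochondria. On normalised FPKM limma called 0 of these 83 genes in each of the 3 comparisons. At an unadjusted p under 0.05, 15 passed between Ts1Rhr and wild type (18.1%, against 19.5% of all tested genes), and 14 of them were higher. Between Hmgn1 overexpression and wild type 10 passed, all higher (12%, against 11.7%), and between the mutant groups 3 did, all lower in Ts1Rhr (3.61%, against 4.37%). On raw FPKM limma called 3 of the 83, all higher in Ts1Rhr than in wild type. That is 3.61% of them, against 8.85% of all tested genes (4.29% higher), so the share called was below the background.

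Median differences between Ts1Rhr and wild type on normalised FPKM were 0.31, 0.21, 0.32, 0.34, 0.40 and 0.69 in the order of the lists, against 0.05 for the 76 members and 0.12 for all tested genes. On raw FPKM they were 0.12, 0.05, 0.11, 0.10, 0.28 and 0.54, against -0.03 and 0.01. Between Hmgn1 overexpression and wild type they were 0.32, 0.38, 0.39, 0.35, 0.34 and 0.49 on normalised FPKM, against 0.23 for the members. In these 3 sets of values the members' median was below that of each list, a description that carries no test. Between Ts1Rhr and Hmgn1 overexpression on raw FPKM the assembly factors were lower than the members, with medians of -0.11 and -0.05.

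The 3 genes called encode transcription factors and a factor of mitochondrial transcription. Tefm, the elongation factor of the mitochondrial RNA polymerase, had 14.1, 16.4 and 16.4 raw FPKM in wild type, 19.6, 24.7 and 26.2 with Hmgn1 overexpression and 24.3, 26.7 and 27.2 in Ts1Rhr. It rose 1.66-fold in Ts1Rhr (limma, adjusted p = 0.032), and the libraries of both mutant groups lay above wild type. Nrf1 had 7.13, 9.01 and 9.08 raw FPKM in wild type and 10.6, 10.1 and 12.7 with Hmgn1 overexpression. In Ts1Rhr it had 13.7, 15.1 and 12.9. It rose 1.65-fold (limma, adjusted p = 0.0325). Gabpb1, a subunit of the ETS factor GABP, had 25.1, 31.2 and 32.0 in wild type, 33.6, 36.0 and 47.5 with Hmgn1 overexpression and 41.8, 56.2 and 59.0 in Ts1Rhr, and rose 1.76-fold (limma, adjusted p = 0.033). For all 3 genes each mutant library exceeded each wild-type one. On raw FPKM 19.1% of all tested genes were higher without overlap in Ts1Rhr, and 9.81% with Hmgn1 overexpression. The 3 genes were picked by their calls in Ts1Rhr on the same values, so their separation there adds no support. The comparison with Hmgn1 overexpression uses the same wild-type libraries, so it is not independent of that choice.

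These raw calls were near the threshold as well. With 1 library left out limma called Tefm and Gabpb1 in 5 of 9 fits and Nrf1 in 4, and with the myeloid covariate none passed (limma, adjusted p = 0.132, 0.147 and 0.146 for Tefm, Gabpb1 and Nrf1). Their log2 differences with that covariate were 0.68, 0.63 and 0.60, against 0.74, 0.82 and 0.72 without it. A replicate block ended the call of Nrf1 (limma, adjusted p = 0.0518) and left those of Tefm and Gabpb1. Gabpa, the DNA-binding subunit of GABP, was 1.45-fold in Ts1Rhr (limma, adjusted p = 0.0513), and Yy1 1.22-fold (limma, adjusted p = 0.151), and neither passed.

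**Figure D5:**
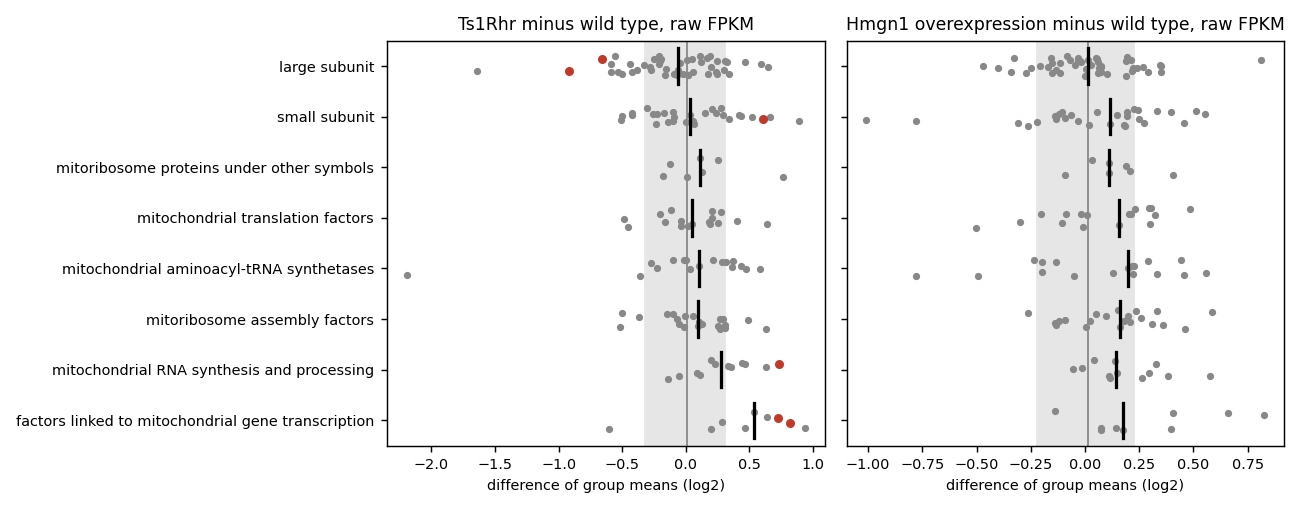
Log2 differences on raw FPKM for each gene of the large and small subunits and of 6 lists of related genes, in Ts1Rhr (left) and Hmgn1 overexpression (right) against wild type. Red points passed limma's adjusted threshold of 0.05, black bars are list medians and the grey band holds the middle 50% of all tested genes; red points occur only in Ts1Rhr, where 3 members and 3 genes of the lists passed.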

How the data were processed

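The authors deposited 2 tables of FPKM with 1 column per library, a raw one and a second one normalised further between libraries. Per the submitters' processing notes, the tools were HISAT and Cufflinks 2.0.0 and the build mm9; settings, annotation and the way of normalising were not given in the sources used here. FPKM hold no counts, so the depth is unknown and no count test was run. From 23398 rows, 92 spike-ins and 27 rows with dates for symbols were left out, and genes averaging 1 or more raw FPKM were tested. Normalised FPKM entered as log2, since about 0.1 is already inside them, and raw FPKM as log2(FPKM + 0.1), so folds of low genes are understated. limma 3.58.1 (R 4.3.3) was fitted to all 9 libraries with an intensity trend, a mean per group, two-sided p and Benjamini-Hochberg adjustment over 10878 genes. The fit was tested on simulated data. Members with values were named by a rule on calls, size of difference, level and function, and by distance of 1 library from the rest. The members, lists and rules were chosen with earlier results of these data known. Promoters come from RefSeq (GRCm38.p6) and gene arrangement from GENCODE vM21 (GRCm38), which is not the files' build, so no coordinates other than those of the promoters are given. No protein sequences were used here. Summaries were made with pandas 2.3.3. Alternatives are listed in the closing section.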

Additional observations from a re-analysis of the deposited data

How the results depend on the processing

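Between Ts1Rhr and wild type, limma called 0 members on normalised FPKM, 2 (Mrpl4 and Mrpl41) with every library at the same median, 3 on raw FPKM and 3 on log2(raw FPKM + 1). It called 0 with 1 spike-in factor, log2(normalised FPKM + 1), no filter on low values, a mean of at least 5 raw FPKM, only the groups compared, no intensity trend, the myeloid covariate, each library left out, and wild-type replicate 1 and Ts1Rhr replicate 3 left out together. In the other 2 comparisons the count was 0 under every alternative run. The 3 calls on raw FPKM, among 963 over all tested genes, became 0 of 11 with the myeloid covariate. They ranged from 0 to 3 with 1 library left out, while calls over all genes ranged from 1 to 1276. The myeloid covariate, the joint removal of wild-type replicate 1 and Ts1Rhr replicate 3, the repeats on raw FPKM and the split by ribosome structure were chosen after seeing the data.

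Whether replicate numbers pair the libraries is not settled. Correlations of deviations from the group means ran from -0.13 to 0.16 for same-numbered libraries of different groups, and from -0.28 to 0.21 for differently numbered ones. With 3 libraries a group, such correlations cannot exclude pairing. With a replicate block limma called 0 members in each comparison on normalised FPKM, and 0 in place of 3 on raw FPKM (314 in place of 963 over all genes).

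The large-minus-small median difference between Ts1Rhr and wild type was -0.04 on the log2 scale, -0.14 with the myeloid covariate, and -0.19 to -0.033 with 1 library left out (-0.19 without wild-type replicate 2, -0.14 without wild-type replicate 3). Between Hmgn1 overexpression and wild type it was -0.13, -0.0047 without wild-type replicate 1 and Ts1Rhr replicate 3, and -0.16 to -0.0047 with 1 library left out (-0.0047 without wild-type replicate 1). Between Ts1Rhr and Hmgn1 overexpression it was -0.05, -0.12 on raw FPKM, and -0.13 to 0.0023 with 1 library left out.

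Signs turned for 3 named members, none past the threshold. Mrpl21 in Ts1Rhr against wild type became 0.36 without both libraries and ranged from -2.33 to 0.13 with 1 library left out (0.13 without Ts1Rhr replicate 3). Mrpl21 in Hmgn1 overexpression against wild type became 0.0302 without both or without wild-type replicate 1 and 0.36 with the myeloid covariate, and ranged from -0.617 to 0.50 with 1 library left out (0.50 without Hmgn1-overexpressing replicate 1). Mrpl21 in Ts1Rhr against Hmgn1 overexpression became 0.33 without both or without Ts1Rhr replicate 3, and was as low as -2.14 with another library left out. In Hmgn1 overexpression against wild type, Mrpl36 became 0.0233 with the myeloid covariate and ranged from -0.557 to 0.47 with 1 library left out. Mrps6 became 0.0345 without both or without wild-type replicate 1 and 0.0827 with the covariate, and ranged from -0.358 to 0.10. Both were highest without Hmgn1-overexpressing replicate 1. The cause was not tested. FPKM give no depth, so the counting error of low members such as Mrpl17, Mrpl21 and Mrps36 is unknown.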

Other observations

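Lars2, the mitochondrial leucyl-tRNA synthetase, had by far the widest range among the related genes, from 63.9 to 2803 raw FPKM. Its values were 2803, 391 and 1462 in wild type, 1762, 540 and 332 with Hmgn1 overexpression and 280, 63.9 and 936 in Ts1Rhr, and they spread widely within each group. The ribosomal RNA row Rn45s had 10510, 1184 and 3043 raw FPKM in wild type and 4495, 2323 and 1082 with Hmgn1 overexpression. In Ts1Rhr it had 956, 325 and 3095. Lars2 and Rn45s were both highest in wild-type replicate 1 and lowest in Ts1Rhr replicate 2. They ordered the libraries alike, except that wild-type replicate 3 and Ts1Rhr replicate 3 changed places. The reason was not tested. Lars2 did not pass between Ts1Rhr and wild type on raw FPKM (limma, adjusted p = 0.144). Ict1, a mitoribosome protein under another symbol, was at 143 raw FPKM in Ts1Rhr replicate 2 and between 39.1 and 66.2 in all other libraries.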
